A study of Mus musculus with 4 samples.

Results

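The genes described here are 44 listed members of the unfolded protein response and the integrated stress response, chosen by symbol. Of these, 43 had entries among the 12967 gene symbols of the deposited table, and Derl3 had none. Entries of the same symbol were summed, and all 43 passed the minimum mean of 5 CPM (reads of a gene per fixed number of reads sequenced, scaled so that libraries of unequal depth can be compared) that left 10283 genes for comparison, the lowest member mean being 14.5 CPM. The members comprised 16 ATF4/CHOP targets, 12 endoplasmic reticulum (ER) chaperones of the ATF6 and XBP1 arms, 6 genes of ER-associated degradation, 6 stress sensors and 3 other regulators. The ATF4/CHOP targets were compared with the ER chaperones.

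The libraries came from RNA immunoprecipitation, in which an antibody recovers a protein with the RNA bound to it. Cells of 4T1, a mouse mammary carcinoma line, stably carried an shRNA, either the SCR control (shSCR) or one directed at the ceramide synthase gene CerS4 (shCerS4), and all were grown in 4 ug/mL puromycin. From each cell line 1 precipitate was made with an antibody to Caprin-1, which binds mRNA and takes part in stress granules, and 1 with IgG as the control antibody, which gave 4 libraries of polyadenylated RNA from 500 ng of total RNA each. Whether each cell line was a clone or a pool was not given, and no separate input library was analysed here. The series states its main question as the mRNA bound to Caprin-1 in knockdown against control cells. Each group had 1 library and no test of significance was made, so ratios carry a 95% counting interval, which covers read sampling only and not variation between cultures or precipitates. The targeted gene, Cers4, had no entry, so the knockdown itself was not analysed here. In these precipitates, fewer cells in a given state and less RNA per cell cannot be told apart.

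When unfolded proteins collect in the ER, the sensors PERK, IRE1 and ATF6 respond. PERK is also one of a family of kinases that phosphorylate eIF2alpha under different stresses, which slows general translation and favours translation of the transcription factor ATF4. ATF4 and its target CHOP then act on genes of amino acid supply, redox balance and feedback control. IRE1 splices Xbp1 mRNA, and the spliced XBP1 factor together with cleaved ATF6 acts on ER chaperone and degradation genes.

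Estimated depth was 19.8 M and 19.7 M reads in the IgG libraries of shSCR and shCerS4, and 27.0 M and 24.7 M in the Caprin-1 libraries. The members held between 244 and 72678 reads each per library. Of 6 mammary epithelial markers 5 had entries, with summed levels of 2821 to 7597 CPM, while 3 of 4 fibroblast markers summed to 20.8 to 65.7 CPM. Of 5 leukocyte markers only Cd68 had an entry, at 14.6 to 49.1 CPM, and of 3 endothelial markers only Kdr, at 0 CPM in 3 libraries and 0.667 CPM in shSCR IgG. With each antibody the summed epithelial level was lower in shCerS4 than in shSCR, through Krt8 (log2 ratio -1.30 with Caprin-1) and Krt18 (-0.85), while Cdh1 (1.06) and Krt14 (0.77) were higher there and Epcam was at 0.12. Their part in the results below was not tested.

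Promoter sequences were examined because the arms are defined by the factors that bind their promoters. RefSeq windows of GRCm38.p6, running from 250 bases before to 50 after a start site, were given for 38 of the 44 genes, 43 windows in all. The CCAAT-enhancer-binding protein and ATF composite element (CARE, searched as TGATGNAAN on both strands) was present in 6 of 15 ATF4/CHOP targets with a window, namely Asns, Atf3, Chac1, Nupr1, Trib3 and Vldlr. It was in 0 of 10 ER chaperones and in 1 of 6 degradation genes, Herpud1. Over all promoters it was in 1215 of 27025 genes, or in 3.95% of 32851 windows. The ER stress element (ERSE, searched as CCAAT, then any 9 bases, then CCACG, on both strands) was present in 6 of 10 ER chaperones, namely Canx, Creld2, Dnajc3, Hsp90b1, Hspa5 and Pdia6. Among degradation genes Derl3 and Syvn1 held it, as did 0 of 15 ATF4/CHOP targets. Over all promoters it was in 37 of 27025 genes, or in 0.119% of windows. The unfolded protein response element (UPRE, searched as TGACGTGG on both strands) was in 0.676% of all windows and in 0 of the members' windows. A match is only a run of letters in the window. The lists were drawn up by arm, so the contrast between them is not a result of these libraries.

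The windows below are the 3 ATF4/CHOP targets with a motif match and the largest ratios in the Caprin-1 comparison. They were picked for both traits, so they do not show that a match goes with a large difference. Ppp1r15a (log2 ratio 2.28) and Ddit3 (2.22) had larger ratios than Trib3 (1.36) and no recorded match. Asns (0.51), Chac1 (0.43) and Nupr1 (0.59) had a match and smaller ratios. Capitals mark the CARE match, which lies 111 to 103 bases before the start in Atf3 (chr1:191183284-191183583, minus strand). In Trib3 (chr2:152344011-152344310, minus strand) it lies at bases 14 to 22 after the start. In Vldlr (chr19:27216770-27217069, plus strand) it lies 201 to 193 bases before the start used for its window. That window lies inside the RefSeq span of Vldlr, which begins at base 27216480, so the start used is not the first base of the gene.
Atf3: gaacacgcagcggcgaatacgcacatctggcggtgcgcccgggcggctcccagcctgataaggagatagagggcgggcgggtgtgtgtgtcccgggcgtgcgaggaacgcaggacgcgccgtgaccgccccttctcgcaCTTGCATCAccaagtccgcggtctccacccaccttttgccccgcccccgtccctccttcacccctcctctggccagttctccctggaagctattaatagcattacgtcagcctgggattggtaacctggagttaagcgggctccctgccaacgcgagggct
Vldlr: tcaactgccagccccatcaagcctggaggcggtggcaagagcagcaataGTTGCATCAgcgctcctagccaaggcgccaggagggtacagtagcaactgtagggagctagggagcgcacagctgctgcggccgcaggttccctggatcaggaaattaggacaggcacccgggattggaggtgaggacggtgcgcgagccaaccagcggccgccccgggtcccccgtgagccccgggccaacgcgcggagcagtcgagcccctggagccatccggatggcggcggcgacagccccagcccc
Trib3: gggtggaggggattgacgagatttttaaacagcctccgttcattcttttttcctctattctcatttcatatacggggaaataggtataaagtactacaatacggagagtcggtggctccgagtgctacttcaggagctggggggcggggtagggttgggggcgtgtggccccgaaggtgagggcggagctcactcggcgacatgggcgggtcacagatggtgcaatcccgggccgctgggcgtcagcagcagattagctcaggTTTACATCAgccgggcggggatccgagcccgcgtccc

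The 3 ER chaperones with an ERSE match and the largest ratios in either direction show the other element for contrast, Pdia6 being one that was lower in shCerS4. Capitals mark the ERSE match, 65 to 47 bases before the start in Hspa5 (chr2:34771840-34772139, plus strand) and 98 to 80 before it in Pdia6 (chr12:17266339-17266638, plus strand). Hsp90b1 (chr10:86705395-86705694, minus strand) held 2 matches, at 212 to 194 and, on the opposite strand, at 107 to 89 bases before the start.
Hspa5: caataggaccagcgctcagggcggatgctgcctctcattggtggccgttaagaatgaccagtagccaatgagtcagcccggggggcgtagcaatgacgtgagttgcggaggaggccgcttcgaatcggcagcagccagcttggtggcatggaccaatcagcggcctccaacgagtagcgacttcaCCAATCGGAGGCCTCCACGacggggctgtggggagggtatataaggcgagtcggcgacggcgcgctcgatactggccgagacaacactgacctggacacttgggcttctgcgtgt
Hsp90b1: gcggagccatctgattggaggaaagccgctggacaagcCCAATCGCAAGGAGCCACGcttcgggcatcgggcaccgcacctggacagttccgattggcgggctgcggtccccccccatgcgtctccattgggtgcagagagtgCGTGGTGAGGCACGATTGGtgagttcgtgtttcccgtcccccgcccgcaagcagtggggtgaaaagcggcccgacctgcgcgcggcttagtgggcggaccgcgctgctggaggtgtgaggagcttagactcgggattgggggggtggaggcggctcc
Pdia6: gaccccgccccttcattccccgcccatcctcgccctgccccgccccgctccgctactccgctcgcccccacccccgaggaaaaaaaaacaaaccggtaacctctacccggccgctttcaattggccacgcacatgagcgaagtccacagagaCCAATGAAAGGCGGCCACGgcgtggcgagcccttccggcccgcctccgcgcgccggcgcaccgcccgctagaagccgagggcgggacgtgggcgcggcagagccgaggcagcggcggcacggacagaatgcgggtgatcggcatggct

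In the Caprin-1 precipitates, 8 of 43 members were at least 2-fold higher in shCerS4 than in shSCR with an interval that excluded 0, a share to read against 6.25% of all genes compared. No member was at least 2-fold lower, against 4.95% of all genes. The 8 were Atf3, Vldlr, Ppp1r15a, Ddit3 and Trib3 among ATF4/CHOP targets, the chaperone Hyou1, and the sensors Eif2ak3 and Ern1. The median log2 ratio of the members was 0.40, against 0.15 for all genes. Intervals lay above 0 for 34 members, below 0 for 7 and held 0 for 2. The ratio itself was above 0 for 35 members and for 61.3% of all genes. With trimmed-mean scaling, which moved the all-gene median to 0.04, the members called higher numbered 6, since Eif2ak3 (0.94) and Ern1 (0.93) then fell short of 2-fold. Over all genes, 643 were higher and 509 lower under total-count scaling, 484 and 590 under trimmed-mean or upper-quartile scaling, and 458 and 617 under median-of-ratios scaling.

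The IgG precipitates gave a like count, with 7 members at least 2-fold higher in shCerS4 against 5.69% of all genes, and 0 lower against 5.34%. All 7 were ATF4/CHOP targets, namely Atf3, Ddit3, Ppp1r15a, Vldlr, Atf5, Trib3 and Nupr1. In these precipitates the member median was 0.29 and that of all genes 0.10. Nupr1 fell to 0.96 with trimmed-mean scaling, which left 6. Of the 10 members called with either antibody 5 were called with both, and 41 of 43 ratios had the same sign. Neither the overlap of calls nor the agreement of sign was counted over all genes, so these counts have no background to be read against. All-gene calls in IgG were 585 higher and 549 lower under total-count scaling, 447 and 645 under trimmed-mean, 450 and 643 under median-of-ratios, and 474 and 620 under upper-quartile scaling.

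With Caprin-1, 5 of 16 ATF4/CHOP targets were called higher and their log2 ratios had a median of 0.51, while 1 of 12 ER chaperones was called higher around a median of 0.31. Of all genes 6.25% were called higher, with a median of 0.15, so the chaperone share of 8.33% was near that of all genes. With IgG the medians were 0.61 and 0.30, with 7 of 16 and 0 of 12 called higher. All genes then had a median of 0.10, with 5.69% called higher. The difference between the target and chaperone medians was 0.19 with Caprin-1 and 0.30 with IgG. Both groups spread widely around those medians, from -0.50 to 3.15 for the targets and from -0.57 to 1.27 for the chaperones in the Caprin-1 comparison, so that the groups overlapped.

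**Figure D1:**
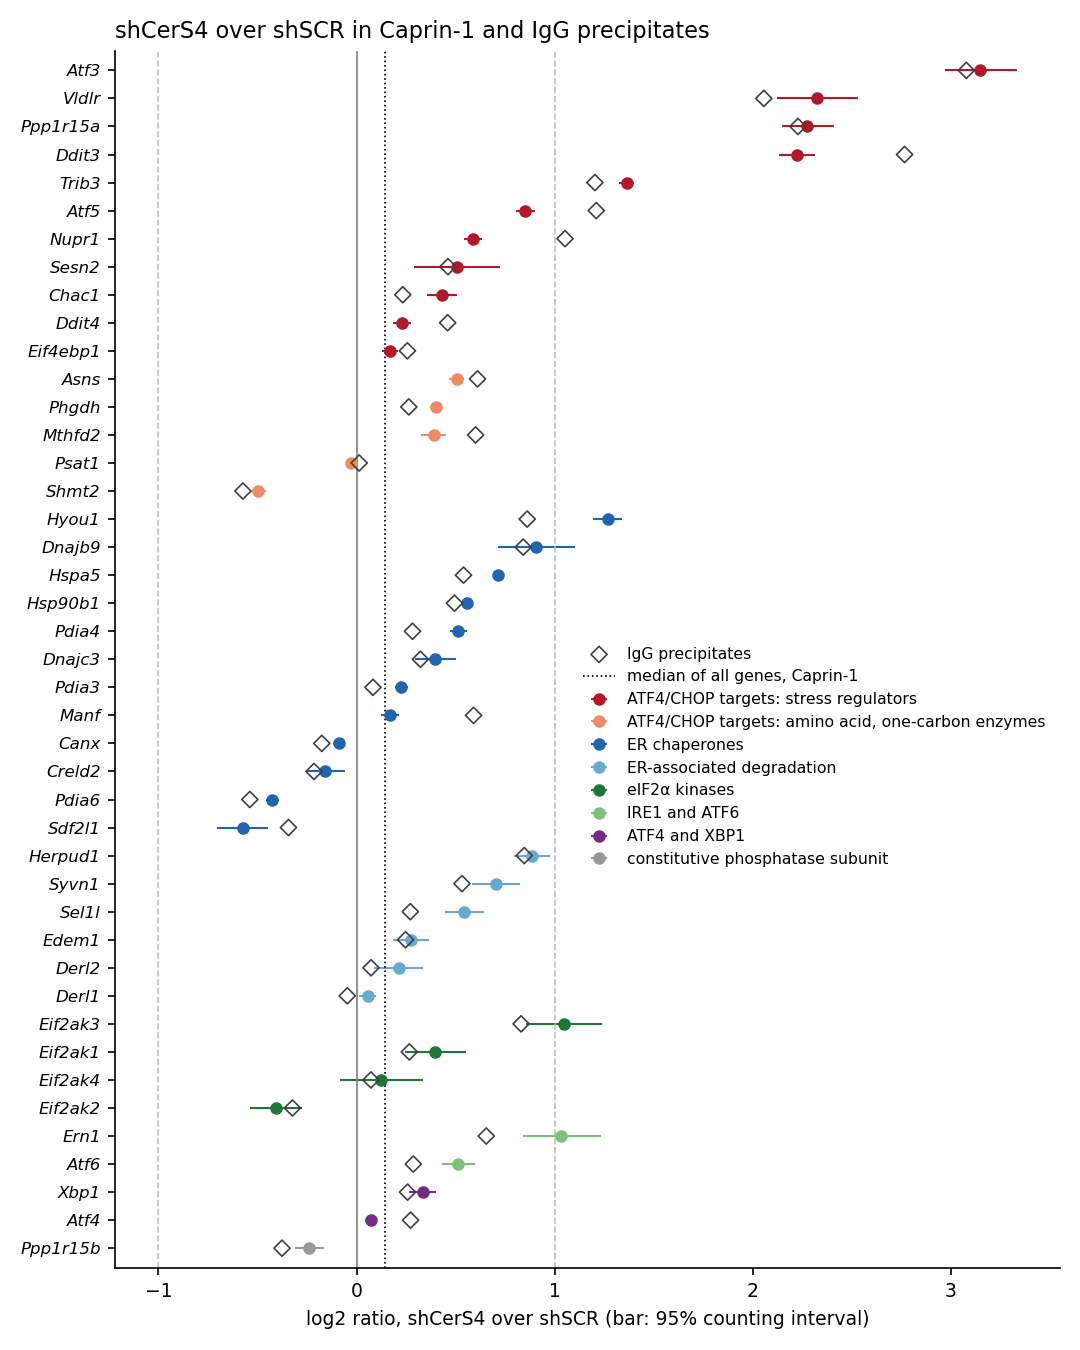
Log2 ratio of shCerS4 over shSCR for each of the 43 members in Caprin-1 precipitates (filled circles, bars the 95% counting interval) and in IgG precipitates (open diamonds, intervals not drawn), coloured by role, with 2-fold marked by dashed lines and the all-gene median of 0.15 by a dotted line. The stress regulators Atf3, Vldlr, Ppp1r15a and Ddit3 lie above 2 with both antibodies, while most chaperones lie between 0 and 1.

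All ATF4/CHOP targets past 2-fold were stress regulators. Of these 11 genes, 5 were called higher in the Caprin-1 comparison and 7 in the IgG comparison, with medians of 0.85 and 1.20, and all 11 intervals lay above 0 in the Caprin-1 comparison. The shares of all genes called higher were 6.25% and 5.69%, with medians of 0.15 and 0.10. Atf3, an immediate stress-induced transcription factor, stood at 12.4 CPM in shSCR IgG and 10.4 CPM in shSCR Caprin-1, and at 105 CPM in shCerS4 IgG and 92.6 CPM in shCerS4 Caprin-1. Both shCerS4 libraries were thus well above both shSCR libraries, whichever antibody was used. Its ratio was 8.86-fold in the Caprin-1 comparison (log2 3.15, interval 2.97 to 3.33) and 8.44-fold in the IgG comparison (log2 3.08, interval 2.89 to 3.28).

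Ddit3, which encodes CHOP, stood at 40.6 CPM in shSCR IgG, 46.4 in shSCR Caprin-1, 276 in shCerS4 IgG and 217 in shCerS4 Caprin-1. The log2 ratio was 2.22 (interval 2.13 to 2.31) with Caprin-1 and 2.77 (interval 2.66 to 2.88) with IgG. The shCerS4 libraries were again the high ones, and the larger ratio was that of the control antibody. Ppp1r15a, the inducible GADD34 subunit that directs a phosphatase to eIF2alpha, stood at 29.3, 21.5, 137 and 104 CPM in the same order of libraries, and its log2 ratio was 2.28 (interval 2.15 to 2.41) with Caprin-1 and 2.23 with IgG. Its constitutive counterpart Ppp1r15b stood at 227 CPM in shSCR IgG, 123 in shSCR Caprin-1, 175 in shCerS4 IgG and 104 in shCerS4 Caprin-1. The inducible subunit was higher and the constitutive subunit lower in shCerS4 for each antibody, the latter with log2 ratios of -0.24 and -0.38 for Caprin-1 and IgG.

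Vldlr, a receptor for triglyceride-rich lipoproteins, stood at 13.9 CPM in shSCR IgG, 9.03 in shSCR Caprin-1, 57.9 in shCerS4 IgG and 45.2 in shCerS4 Caprin-1, with log2 ratios of 2.32 (interval 2.12 to 2.53) for Caprin-1 and 2.06 for IgG. Trib3, a pseudokinase that feeds back on ATF4 and CHOP, stood at 194, 274, 447 and 706 CPM in that order, with log2 ratios of 1.36 (interval 1.32 to 1.40) and 1.20. Both genes had no overlap between the shCerS4 and shSCR libraries. Atf5, a related transcription factor, stood at 227, 209, 525 and 377 CPM, and its log2 ratios were 0.85 with Caprin-1 and 1.21 with IgG. Nupr1, a small stress-induced nuclear protein, stood at 179, 261, 371 and 392 CPM, log2 ratios of 0.59 and 1.05. For Atf5 and Nupr1 only the IgG ratio passed 2-fold. The remaining regulators differed less. The log2 ratios in the Caprin-1 comparison were 0.51 for Sesn2, an inhibitor of mTORC1 signalling, 0.43 for Chac1, which degrades glutathione, 0.23 for Ddit4, another inhibitor of mTORC1, and 0.17 for Eif4ebp1, a repressor of cap-dependent initiation.

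**Figure D2:**
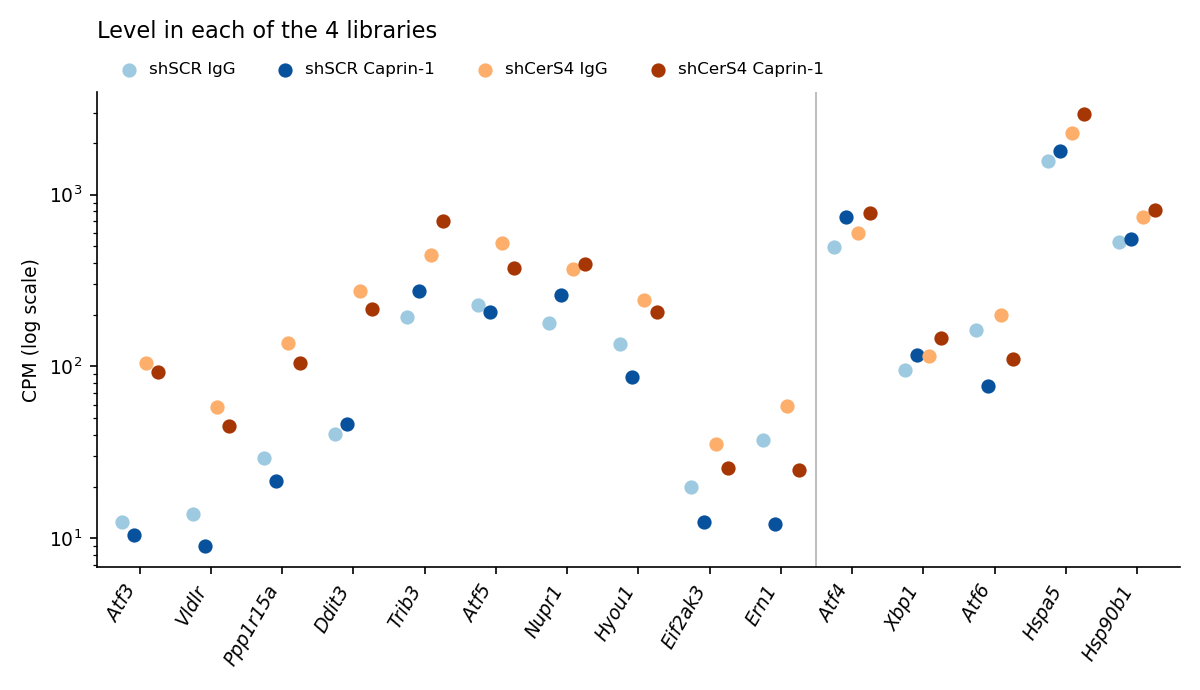
Level in CPM (log axis) of 15 members in each of the 4 libraries, 1 point per library, with the 10 members past 2-fold in either shCerS4 over shSCR comparison left of the vertical line and members shown whatever their values right of it. For Atf3, Vldlr, Ppp1r15a and Ddit3 both shCerS4 points lie far above both shSCR points, while for Atf4 and Xbp1 the points of the 2 cell lines lie close together.

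The 5 amino acid and one-carbon enzymes among the ATF4/CHOP targets did not pass 2-fold with either antibody, and their medians were 0.39 and 0.26 for Caprin-1 and IgG. Of all genes 6.25% and 5.69% were called higher, with medians of 0.15 and 0.10, so 0 of 5 is near the share of all genes. Asns (asparagine synthetase), Phgdh (first step of serine synthesis) and Mthfd2 (mitochondrial folate metabolism) had log2 ratios of 0.51, 0.40 and 0.39 in the Caprin-1 comparison. Psat1, the next enzyme of serine synthesis after Phgdh, had -0.03 there and 0.01 in IgG, intervals that held 0. Shmt2, which makes glycine from serine in mitochondria, was lower in shCerS4, at 384 CPM in shSCR IgG, 514 in shSCR Caprin-1, 258 in shCerS4 IgG and 364 in shCerS4 Caprin-1, with log2 ratios of -0.57 for IgG and -0.50 for Caprin-1. The enzymes therefore did not share a direction.

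Among ER chaperones the highest ratio was that of Hyou1, an ER member of the HSP70 superfamily and exchange factor for BiP. It stood at 135 CPM in shSCR IgG, 86.3 in shSCR Caprin-1, 244 in shCerS4 IgG and 208 in shCerS4 Caprin-1, with log2 ratios of 1.27 (interval 1.20 to 1.34) for Caprin-1 and 0.86 (interval 0.79 to 0.93) for IgG. Hspa5, which encodes the main ER chaperone BiP, stood at 1577, 1798, 2293 and 2946 CPM in that order, with log2 ratios of 0.71 (interval 0.70 to 0.73) and 0.54. Hsp90b1, the ER HSP90 called GRP94, stood at 529, 555, 745 and 818 CPM, with ratios of 0.56 and 0.49. In all 3 genes both shCerS4 libraries exceeded both shSCR libraries, at less than 2-fold except for Hyou1 with Caprin-1.

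Dnajb9, an ER co-chaperone that restrains IRE1, had a log2 ratio of 0.91 (interval 0.71 to 1.10) in the Caprin-1 comparison and 0.84 in IgG. Dnajc3, a co-chaperone of BiP, had 0.40 and 0.32. The disulfide isomerases diverged, with Pdia4 at 0.51, Pdia3 at 0.23 and Pdia6 at -0.43 in the Caprin-1 comparison, the last being lower in IgG too (-0.54). Manf, a secreted ER-stress factor, had 0.17 with Caprin-1 and 0.59 with IgG. The other lower chaperones were Canx (calnexin, a lectin chaperone, -0.09), Creld2 (-0.16) and Sdf2l1, part of the BiP complex (-0.57), and their IgG ratios were -0.18, -0.21 and -0.34. In the Caprin-1 comparison 8 of the 12 intervals lay above 0 and 4 below, while 61.3% of all genes had a ratio above 0.

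The 6 measured degradation genes had intervals above 0 in the Caprin-1 comparison, with a median of 0.41. Of all genes 61.3% had a ratio above 0, and their median was 0.15. In either direction 0 of 6 were called, near the 6.25% of all genes called higher and 4.95% called lower. The largest ratios were 0.88 for Herpud1, a scaffold of the ubiquitin ligase complex, 0.70 for the ligase Syvn1 (HRD1) and 0.54 for its adaptor Sel1l. Edem1, which routes misfolded glycoproteins to degradation, had 0.28, and the membrane channel proteins Derl2 and Derl1 had 0.21 and 0.06. In IgG the median was 0.26, against 0.10 for all genes. The sign for Derl1 turned to -0.05 with trimmed-mean scaling of the Caprin-1 comparison.

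Of the stress sensors, Eif2ak3 (PERK) stood at 19.8 CPM in shSCR IgG, 12.4 in shSCR Caprin-1, 35.2 in shCerS4 IgG and 25.7 in shCerS4 Caprin-1, with log2 ratios of 1.05 (interval 0.85 to 1.24) for Caprin-1 and 0.83 for IgG. Ern1 (IRE1) stood at 37.5, 12.2, 59.0 and 24.9 CPM in that order, with ratios of 1.03 (interval 0.84 to 1.23) and 0.66. Atf6 stood at 164, 77.4, 200 and 111 CPM, with ratios of 0.51 and 0.29. For Ern1 and Atf6 the IgG library was the higher of each pair, and shCerS4 Caprin-1 lay below shSCR IgG, so that the libraries of the 2 cell lines overlapped. The remaining eIF2alpha kinases were Eif2ak1 (HRI, activated by lack of heme and by mitochondrial stress) at 0.40, Eif2ak4 (GCN2, activated by lack of amino acids) at 0.12 with an interval that held 0, and Eif2ak2 (PKR, activated by double-stranded RNA) at -0.41 in the Caprin-1 comparison. PKR was lower in IgG as well (-0.32).

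Summed over their entries, the mRNAs of Atf4 and Xbp1 differed little between the cell lines. Atf4 stood at 496 CPM in shSCR IgG, 741 in shSCR Caprin-1, 600 in shCerS4 IgG and 780 in shCerS4 Caprin-1. Its log2 ratio was 0.07 (interval 0.05 to 0.10) for Caprin-1, which turned to -0.03 with trimmed-mean scaling, and 0.27 for IgG. Several targets of ATF4 thus differed far more between the cell lines than Atf4 mRNA did in the same libraries. Its 2 transcript entries had ratios of 0.23 and -0.09 with Caprin-1. Ddit3 also had 2 entries, with ratios of 2.29 for the abundant one and 0.70 for a minor one of 0.863 to 5.36 CPM, while Atf3 had 1.

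Xbp1 as a gene stood at 95.9 CPM in shSCR IgG, 116 in shSCR Caprin-1, 115 in shCerS4 IgG and 146 in shCerS4 Caprin-1, with log2 ratios of 0.33 for Caprin-1 and 0.26 for IgG. Its 2 transcript entries did not move alike. The first stood at 94.8, 114, 97.3 and 128 CPM in those libraries, ratios of 0.18 and 0.04. The second stood at 1.13, 2.23, 17.4 and 17.7 CPM, which corresponds to 22, 60, 342 and 436 estimated reads. The second entry was thus low in both shSCR libraries and high in both shCerS4 libraries, by 7.88-fold with Caprin-1 (log2 2.98, interval 2.60 to 3.40) and 15.1-fold with IgG (log2 3.92, interval 3.33 to 4.64). Its share of the gene's reads was 1.16% (exact Clopper-Pearson 95% interval 0.726 to 1.75) in shSCR IgG and 1.92% (1.47 to 2.46) in shSCR Caprin-1. In shCerS4 the share was 15.2% (13.7 to 16.7) with IgG and 12.1% (11.1 to 13.2) with Caprin-1. RefSeq lists 2 Xbp1 transcripts, but the entries carry no transcript identifier, so they could not be matched to the spliced and unspliced forms. Reads were divided among a gene's transcripts before deposition, and the intervals do not cover that division.

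The division among entries also moved in other members with several entries. The first Hspa5 entry held 67.2% and 72.6% of the gene's reads in shSCR IgG and Caprin-1, and 80.4% and 81.0% in shCerS4. The first Eif2ak4 entry held 28.3% and 48.0% in shSCR, and 79.1% and 76.3% in shCerS4. These shares differed by cell line with each antibody, as for Xbp1, but not every entry did so. For Eif2ak4 the first of 3 entries had a log2 ratio of 1.55 in IgG and the third -4.15, while in Caprin-1 the second had -2.68 and the third 1.14. The third stood at 9.33 CPM in shSCR IgG, 1.21 in shSCR Caprin-1, 0.50 in shCerS4 IgG and 2.69 in shCerS4 Caprin-1, so that 1 library was high. Minor entries of Atf5 and Herpud1 likewise opposed their main entry past 2-fold in IgG, with log2 ratios of -4.09 and -2.71. These rested on 2 and 15 estimated reads in shCerS4 IgG, against 49 and 103 in shSCR IgG. With Caprin-1 the same minor entries were higher in shCerS4, at 1.60 (interval 0.16 to 3.50) and 1.08 (interval 0.68 to 1.49). These ratios rested on 15 and 154 estimated reads in shCerS4 Caprin-1, against 5 and 80 in shSCR Caprin-1. Summed gene values do not depend on how reads were divided within a gene.

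**Figure D3:**
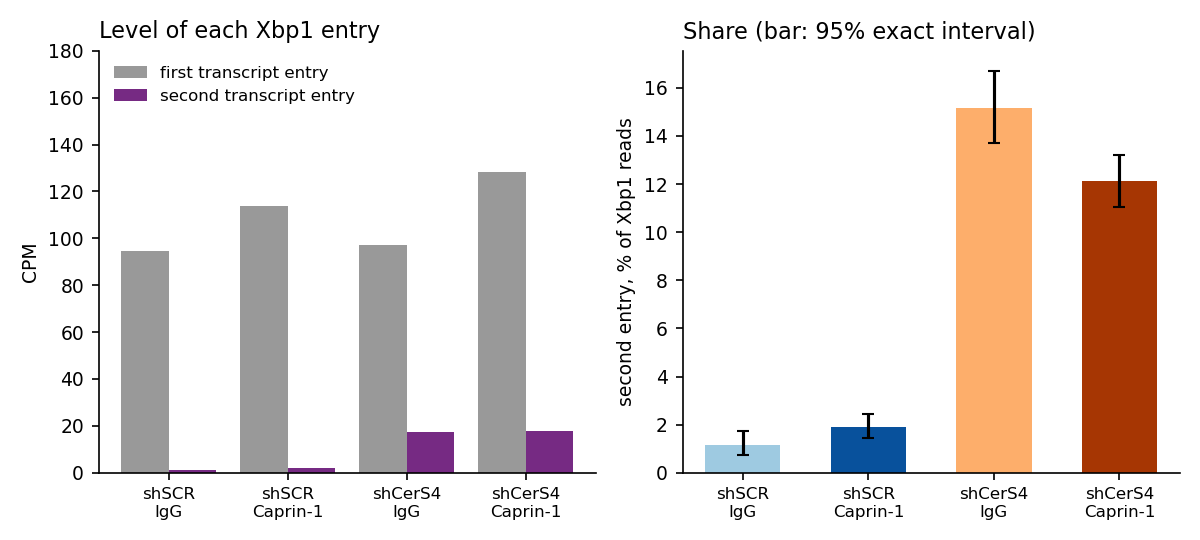
Left, level in CPM of the 2 Xbp1 transcript entries in each of the 4 libraries. Right, the second entry as a percentage of Xbp1 reads with its exact 95% binomial interval, which is 1.16% and 1.92% in the shSCR libraries and 15.2% and 12.1% in the shCerS4 libraries.

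Caprin-1 over IgG asks which of these mRNAs the Caprin-1 antibody recovered above the control antibody in each cell line, and it uses the same 4 libraries as the comparisons above. In shSCR cells 0 members were at least 2-fold higher with Caprin-1, against 1.69% of all genes, and 2 were lower, Ern1 and Atf6, against 13.0%. Atf6 was at -0.91 and short of 2-fold with trimmed-mean scaling. In shCerS4 cells 0 were higher, against 0.934%, and Ern1 alone was lower, against 8.02%. Scaling mattered here. Over all genes in shSCR cells, total counts gave 174 higher and 1337 lower, trimmed-mean scaling 427 and 939, median-of-ratios 448 and 918 and upper-quartile 461 and 910. In shCerS4 cells the split was 96 and 825 under total counts, and 257 and 515, 229 and 549, and 243 and 537 under those scalings.

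The 3 highest members by the mean of both cell lines were ATF4/CHOP targets. Phgdh stood at 334 CPM in shSCR IgG and 559 in shSCR Caprin-1, and at 401 in shCerS4 IgG and 738 in shCerS4 Caprin-1, with log2 ratios of Caprin-1 over IgG of 0.74 and 0.88. Eif4ebp1 had 0.71 and 0.62, and Trib3 0.50 and 0.66, in shSCR and shCerS4 cells. The 3 lowest members were sensors. Ern1 had -1.62 (interval -1.81 to -1.43) and -1.24 (-1.39 to -1.10), Atf6 -1.08 and -0.85, and Eif2ak2 -0.78 and -0.87. These members were on the same side of IgG in both cell lines, though they were picked by the mean of both. Over the members, 19 had intervals above 0 in both cell lines and 18 below 0 in both, with total-count scaling. This was not counted over all genes. Under the 3 other scalings the ratio turned from below to above 0 for Atf5, Ddit4, Eif2ak1, Sesn2 and Syvn1 in shSCR cells. It did so for Mthfd2 and Sesn2 in shCerS4 cells. In each cell line 21 members had a ratio above 0, against 42.6% of all genes in shSCR and 42.8% in shCerS4.

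By role, the amino acid and one-carbon enzymes had a median of 0.45 in each cell line, the stress regulators -0.10 in shSCR and -0.18 in shCerS4, the ER chaperones 0.17 and 0.26, the degradation genes -0.38 and -0.26 and the sensors -0.73 and -0.69. The ATF4/CHOP targets together had 0.26 and 0.01, above the chaperones in shSCR and below them in shCerS4. The medians of all genes were -0.13 and -0.11. Ratios of Caprin-1 over IgG were lower in genes that span more of the genome. Across the 43 members Spearman's rho with genomic span was -0.51 in shSCR and -0.37 in shCerS4, and across 10277 genes with a span it was -0.54 and -0.48. These are correlations across genes of the same pair of libraries, and genes are not independent replicates. The sensors were also the longest group by median, with a span of 85.8 kb against 9.84 kb for ATF4/CHOP targets, 13.7 kb for chaperones, 17.7 kb for degradation genes and 23.5 kb for all genes. The part of gene span in the low sensor ratios was not tested.

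**Figure D4:**
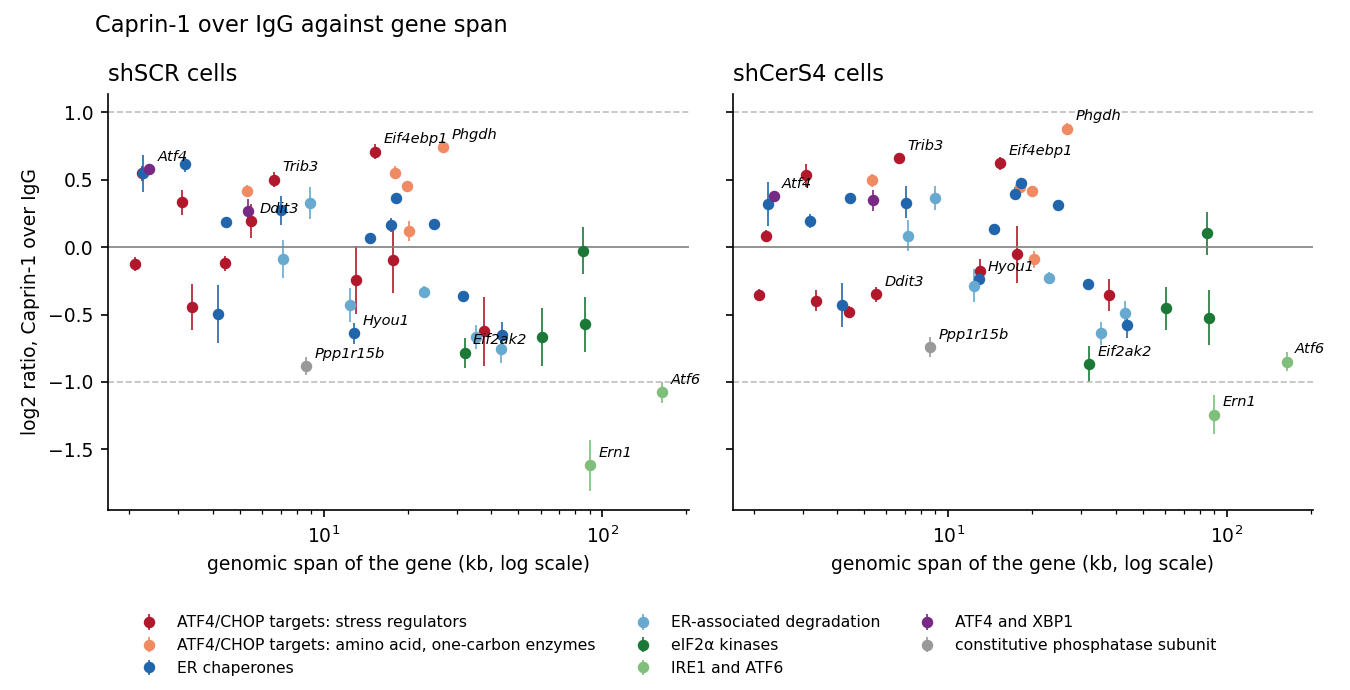
Log2 ratio of Caprin-1 over IgG against genomic span in kb (log axis) for the 43 members, in shSCR cells (left) and shCerS4 cells (right), coloured by role, with bars for the 95% counting interval and dashed lines at 2-fold. Ern1 and Atf6, with spans of 90.2 and 164 kb, have ratios of -1.62 and -1.08 in shSCR cells, and Phgdh has the highest ratio in both panels.

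The change in Caprin-1 over IgG between the cell lines (the log2 ratio in shCerS4 minus that in shSCR) was within 2-fold for all 43 members, with 0 higher against 0.632% of all genes and 0 lower against 0.350%. The interval lay above 0 for 16 members, below 0 for 10 and held 0 for 17. The change itself was above 0 for 31 members and for 56.0% of all genes. The differences of Ddit3 (-0.54, interval -0.68 to -0.40), Nupr1 (-0.46), Manf (-0.42) and Atf5 (-0.36) meant a smaller recovery with Caprin-1 relative to IgG in shCerS4, and those of Hyou1 (0.41, interval 0.31 to 0.50) and Ern1 (0.38, interval 0.14 to 0.61) a larger one. For Atf3 the difference was 0.07 (interval -0.19 to 0.33) and for Ppp1r15a 0.05 (interval -0.14 to 0.23), so the large shCerS4 over shSCR ratios of these genes were of like size with either antibody. The medians were 0.00 for ATF4/CHOP targets and 0.08 for chaperones.

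Lists of other genes of the same pathways, 110 in all, had 104 genes that could be compared. Among further ATF4 target enzymes of amino acid and folate metabolism 3 of 7 were higher past 2-fold in the Caprin-1 comparison, with a list median of 0.95, against 6.25% and a median of 0.15 for all genes. These were Cth, the last enzyme of transsulfuration (log2 1.50), Pycr1 of proline synthesis (1.22) and Got1, the cytosolic aspartate aminotransferase (1.16). Of 10 further ATF4/CHOP factors and effectors 2 were higher, the secreted glycoprotein Stc2 (2.16) and Gadd45a, a growth-arrest gene (1.23), and the list median was 0.45. Amino acid transporters had 0 of 8 called and a median of 0.47.

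Of 39 further genes of ER folding, translocation and secretion, Wfs1 (wolframin, an ER membrane protein, 1.50) was higher and Uggt1, which marks misfolded glycoproteins for refolding, lower (-1.10), around a median of 0.21. Further degradation genes had 0 of 21 called and a median of 0.26, and the eIF2 machinery 0 of 19 and 0.32. Taking these lists by arm, 5 of 25 further ATF4/CHOP genes and 1 of 60 further ER genes were higher in the Caprin-1 comparison (6.25% of all genes), with medians of 0.53 and 0.21. In IgG the counts were 6 of 25 and 5 of 60 (5.69% of all genes), with medians of 0.49 and 0.31.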

How the data were processed

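RNA was sequenced from 4 immunoprecipitates, 1 library per group, and no significance test was made. Reads were aligned with STAR in Partek to mm10, per the submitters' processing notes. Versions, the quantifier, its annotation and the strand setting are not given in the sources used here. The deposited table, which the authors call raw counts, held CPM per transcript with 0.0001 added to each value. That was subtracted, and the depth was recovered from the spacing of low values: under 40 CPM, 79.8 to 81.2% of gene values and 28.9 to 31.4% of transcript values were whole to within 0.05 reads. The limit set by 3 reads was 0.111 to 0.152 CPM. No count test was run.

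The 24393 transcripts were summed by symbol, and the 10283 genes whose mean reached 5 CPM were compared. Log2 ratios used total-count scaling with 0.5 reads added, and a 95% counting interval from the estimated reads. Reads have no molecular identifiers, so intervals and limits cover counting error only. Calls past 2-fold required a ratio of that size or more and an interval off 0. The 5 comparisons share libraries. The alternatives were 3 scalings (trimmed-mean, median-of-ratios, upper-quartile), other filters on low values, 5 reads added, the most abundant transcript in place of the sum, and 2-fold with no interval.

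Values in all 4 libraries were given for members past 2-fold in a shCerS4 over shSCR comparison and for Atf4, Ddit3, Xbp1, Hspa5, Hsp90b1, Eif2ak3, Ern1 and Atf6. The 3 highest and 3 lowest members of Caprin-1 over IgG were named with their ratios. From each wider list, members past 2-fold in the Caprin-1 comparison were named. Values of Shmt2, Ppp1r15b and a few others were added after they were seen. The members and lists were chosen with earlier results of these data known. All 44 symbols matched RefSeq, whose GRCm38.p6 gene spans and promoter windows were used. The scripts ran in Python 3.11.15 with numpy 2.4.6, pandas 2.3.3, scipy 1.17.1 and matplotlib 3.10.9, and were tested on simulated data.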

Additional observations from a re-analysis of the deposited data

Results flagged for a closer look

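For 3 members, ratios that share a contrast lay on opposite sides of 0 with both counting intervals off 0. The difference between the 2 ratios was not tested, since each group had 1 library. Ddit3 (CHOP) had a Caprin-1 over IgG log2 ratio of 0.19 (interval 0.07 to 0.32) in shSCR cells and -0.35 (interval -0.40 to -0.29) in shCerS4 cells. Mthfd2 had 0.12 in shSCR cells and -0.09 in shCerS4 cells, and the latter turned to 0.07 with trimmed-mean scaling. Derl1 had a shCerS4 over shSCR log2 ratio of 0.06 with Caprin-1 and -0.05 with IgG, and the former turned to -0.05 with trimmed-mean scaling.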

How the results depend on the processing

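No paired analysis was possible because each group had 1 library. Among alternative values for the main counts 170 stayed within 1.5 times and 10 did not. Of the 170, 20 came from no filter and 20 from a filter of 1 CPM. Neither setting can alter these counts, since all members passed 5 CPM. The loss of Eif2ak3 and Ern1 from the Caprin-1 calls under other scalings also stayed within 1.5 times. The ATF4/CHOP median minus the chaperone median was 0.19 with Caprin-1 and 0.30 with IgG for shCerS4 over shSCR. For Caprin-1 over IgG it was 0.09 in shSCR cells, -0.24 in shCerS4 cells and -0.08 for the change between them. Each of these 5 differences kept its own direction with a minimum mean of 20 CPM, with 5 reads added and with the most abundant transcript. The other alternatives cannot alter these differences, since they shift all genes alike or leave the members as they are. Under each of the 3 other scalings, members lower with Caprin-1 in shSCR cells went from 2 to 1 (Atf6), and in shCerS4 cells the members higher and the ATF4/CHOP targets higher each went from 0 to 1 (Phgdh). With the most abundant transcript, 1 member (Syvn1) was lower in the difference. The ATF4/CHOP median of the difference turned from 0.0030 to -0.0042 with trimmed-mean scaling, -0.0300 with median-of-ratios, -0.0289 with upper-quartile, -0.0394 with a minimum mean of 20 CPM and -0.0152 with the most abundant transcript. Under the 3 scalings Eif2ak3 had 0.94, 0.92 and 0.94 and Ern1 0.93, 0.90 and 0.93 in the Caprin-1 comparison, and Nupr1 0.96, 0.96 and 0.98 in IgG. A filter of 1 CPM changed genes called in the difference from 65 higher and 36 lower to 230 and 177. Each member held at least 244 reads per library, and the spread between precipitates was not measured.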
